A study of Homo sapiens with 9 samples.

Results

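Messenger RNA levels of 10 keratins were compared between MDA-MB-231 breast cancer cells (Par, the parental line) and 2 metastatic sub-populations derived from them, LM2 for lung and BrM2 for brain. The keratins were KRT5, KRT7, KRT8, KRT14, KRT17, KRT18, KRT19, KRT80, KRT81 and KRT86, taken by gene symbol from the 58887 rows of the count table, and every one of the 10 had exactly 1 row. RNA-seq was run on 3 biological replicates of each line, 9 libraries in all, and per the methods each replicate came from another passage. No line was treated, and all were grown as monolayers in serum-containing medium. MDA-MB-231 is an established human line of the claudin-low type, meaning that it makes little of several epithelial junction proteins. LM2 and BrM2 were derived from it by selection in mice for growth in the lung and in the brain, and each is a single derived population, so a difference between lines describes these populations and not metastases to an organ in general.

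Keratins are the intermediate filament proteins of epithelial cells. They assemble as obligate pairs of a type I with a type II chain, and which pair is made depends on the kind of epithelium. In the mammary gland, KRT8 (type II) pairs with KRT18 (type I) in luminal cells, which also make KRT19 (type I) and KRT7 (type II), whereas KRT5 (type II), KRT14 (type I) and KRT17 (type I) belong to the basal layer. KRT80 is a type II keratin of epithelia, and KRT81 and KRT86 are type II keratins of the hair shaft.

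All 10 genes lie in the 2 keratin clusters. In GRCh38.p14, the type II genes and KRT18 are on chromosome 12, where KRT80 spans chr12:52168996-52192014, KRT7 spans chr12:52233243-52255853 and KRT5 spans chr12:52514575-52520394. KRT8 (chr12:52897191-52949860, minus strand) and KRT18 (chr12:52948855-52952906, plus strand) are neighbours whose ends overlap, and annotated exons of the pair share 525 bases on opposite strands, which is 7.63% of the exon bases of KRT8 and 17.1% of those of KRT18. The other type I genes are on chromosome 17, with KRT19 at chr17:41523617-41528308, KRT14 at chr17:41582279-41586895 and KRT17 at chr17:41619442-41624575. An antisense gene, KRT7-AS, overlaps 282 exon bases of KRT7. The strand that was counted is not given in the sources used here, so part of a count can come from the partner on the opposite strand.

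KRT81 (chr12:52285913-52291534, minus strand) lies inside the span of KRT86 (chr12:52274645-52309163, plus strand), with no exon base in common. The coding sequences of these hair keratins are 94.5% identical over 1448 aligned bases, and 605 bases in a row are the same in both. Their sequences are shown because they set how far the counts of the 2 genes can be told apart. The first 120 bases of the identical stretch, positions 61 to 180 of both coding sequences, cannot assign a read to either gene, while the 60 bases at positions 1249 to 1308 differ at 14 places, marked in capitals.
KRT81 and KRT86, positions 61 to 180: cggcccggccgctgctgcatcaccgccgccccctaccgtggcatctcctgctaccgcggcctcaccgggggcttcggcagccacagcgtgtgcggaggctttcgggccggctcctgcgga
KRT81, positions 1249 to 1308: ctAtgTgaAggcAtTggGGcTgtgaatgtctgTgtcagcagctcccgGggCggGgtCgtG
KRT86, positions 1249 to 1308: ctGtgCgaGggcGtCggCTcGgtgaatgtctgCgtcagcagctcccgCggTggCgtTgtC
The sequences are those of the GENCODE transcripts in the version 44 annotation lifted to GRCh37. Of the 50-base stretches of the transcripts, 38.4% of those of KRT81 occur in KRT86 and 32.8% of those of KRT86 occur in KRT81. Stretches found in any other gene made up 39.2% for KRT8, 36.7% for KRT18, 24.2% for KRT14 and 17.4% for KRT17, but only 4.52% for KRT5, 1.79% for KRT19, 1.08% for KRT7 and 0.418% for KRT80. KRT8 and KRT18 share theirs largely with processed pseudogenes. The counts on 50 KRT8 pseudogenes came to between 3.21% and 6.03% of the KRT8 count of a library, and those on 67 KRT18 pseudogenes to between 0.474% and 1.03% of the KRT18 count.

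Counts on genes totalled 19.9 to 23.9 M per Par library, 23.6 to 24.5 M per LM2 library and 14.4 to 22.1 M per BrM2 library. Levels are given as CPM, the count divided by the library size in M after TMM normalization, and levels of different genes are compared only as CPM per kb of transcript. Neither measure was corrected for stretches that a transcript shares with other genes. Libraries numbered 1 stood apart in each line. On the log2 scale, the 7 keratins that could be tested were higher there than in the other libraries of the line by 0.44 to 1.05 in Par, 0.86 to 1.35 in LM2 and 0.75 to 1.60 in BrM2, while the median of all tested genes moved by 0.00, 0.00 and -0.02. Libraries with the same replicate number deviated from their line's mean together. For that reason each result is given from edgeR's quasi-likelihood test on the 3 lines (no block) and, where the call differs, with the replicate number as a block. Without the block, p-values measure the spread between the passages of a line. With the block, they measure what is left of it once the part shared by libraries of the same number is removed.

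The label of a breast epithelial cell was checked on 18 epithelial identity genes. Of these, 10 passed the filter on low counts, and their list's summed level was 218 to 272 CPM in Par, 74.4 to 93.1 CPM in LM2 and 102 to 153 CPM in BrM2. E-cadherin (CDH1) was below the filter, with counts of 37, 19 and 19 in Par, 5, 8 and 12 in LM2 and 12, 6 and 3 in BrM2. The epithelial adhesion molecule EPCAM was measured at 7.17 ± 1.29 CPM in Par, 4.82 ± 1.81 in LM2 and 6.09 ± 1.51 in BrM2 (SD, n = 3 each). E-cadherin and EPCAM, defining markers of epithelium, were thus low in all 3 lines, and both were detected.

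The keratins of simple epithelia made up most of the keratin mRNA in every line. Per kb of transcript, KRT7, KRT8, KRT18 and KRT19 together held 84.7% ± 1.77 of the summed level of the 10 genes in Par, 84.7% ± 0.736 in LM2 and 92.9% ± 0.713 in BrM2 (SD, n = 3 each). In Par, the order of the levels was KRT8 (478 ± 170 CPM per kb), KRT18 (306 ± 139), KRT7 (300 ± 70.5), KRT19 (148 ± 30.2), KRT81 (130 ± 43.1), KRT80 (85.6 ± 22.5) and KRT86 (3.98 ± 1.28), and the libraries of neighbours in that order overlapped except between KRT7 and KRT19 and between KRT80 and KRT86. LM2 had KRT18 (303 ± 175 CPM per kb) and KRT8 (290 ± 171) first, then KRT7 (107 ± 40.4), and KRT19 came below KRT81 and KRT80, at 32.8 ± 17.1. BrM2 had KRT18 (290 ± 101 CPM per kb) and KRT8 (285 ± 140) first as well, followed by KRT19 (137 ± 64.6), and KRT7 came next at 37.5 ± 12.1. The 3 basal keratins stood at or below 1.15 CPM per kb in all 9 libraries.

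**Figure D1:**
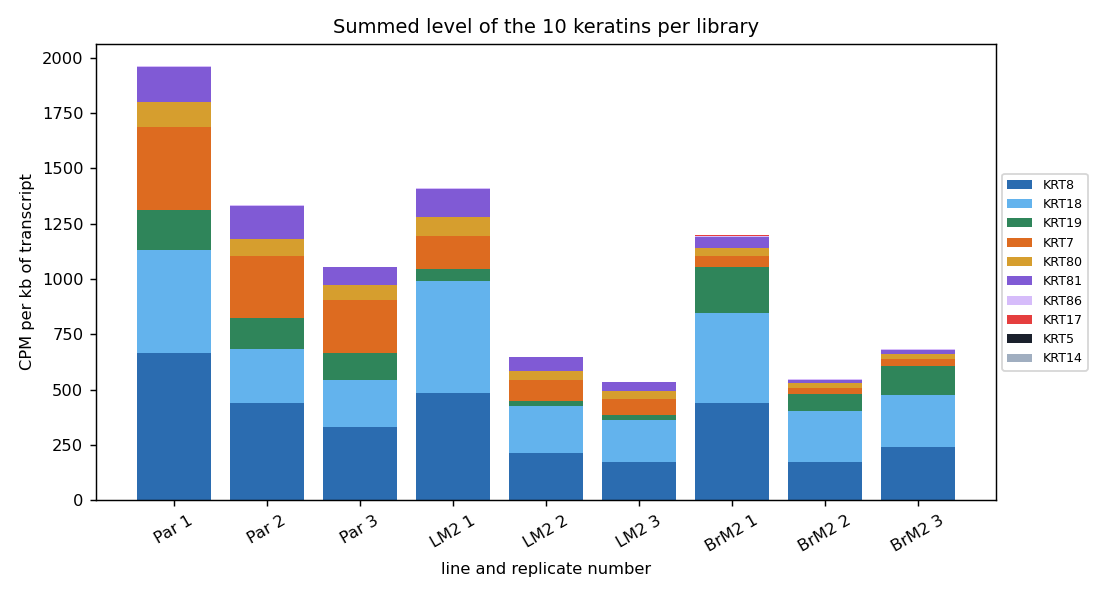
Summed level of the 10 keratins in each library, in CPM per kb of transcript on a linear axis from 0, with 1 colour per gene. The bars reach from 535 CPM per kb (LM2 replicate 3) to 1964 (Par replicate 1), the bars of replicate 1 are the tallest of each line, and KRT5, KRT14, KRT17 and KRT86 are too low to be seen.

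KRT7, the type II keratin of simple and glandular epithelia, fell in both sub-populations and furthest in BrM2. Its level was 614, 459 and 390 CPM in the 3 Par libraries, 247, 154 and 121 in LM2 and 83.5, 48.3 and 50.8 in BrM2. No library of one line reached the range of another, with Par highest and BrM2 lowest. Between LM2 and Par, KRT7 fell by 1.49 on the log2 scale (2.8-fold lower, SE 0.33, edgeR adjusted p = 0.026). In BrM2 it fell by 3.00 against Par (8.01-fold lower, SE 0.35, edgeR adjusted p = 0.00075), and by 1.52 against LM2 (2.86-fold lower, SE 0.33, edgeR adjusted p = 0.025). KRT7 was lower in each same-numbered pair of libraries, with log2 differences of -1.31, -1.58 and -1.69 in LM2 against Par and of -2.88, -3.24 and -2.94 in BrM2 against Par.

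KRT19, a type I keratin of luminal cells, was low in LM2 alone among the 3 lines. It stood at 252, 197 and 169 CPM in Par, 72.9, 34.6 and 29.1 in LM2 and 284, 104 and 185 in BrM2. Every LM2 library was below every library of the other lines, whereas Par and BrM2 overlapped and BrM2 spread the widest. Against Par, KRT19 fell by 2.18 on the log2 scale in LM2 (4.52-fold lower, SE 0.45, edgeR adjusted p = 0.017). In BrM2 it differed from Par by -0.11 (SE 0.43, edgeR adjusted p = 0.93, and 0.49 with the replicate block). The direct comparison gave a level 4.2-fold higher in BrM2 than in LM2, a log2 difference of 2.07 (SE 0.45, edgeR adjusted p = 0.023). KRT7 and KRT19 thus differed in opposite directions between the 2 sub-populations, as seen in the plot of keratin levels by library.

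**Figure D2:**
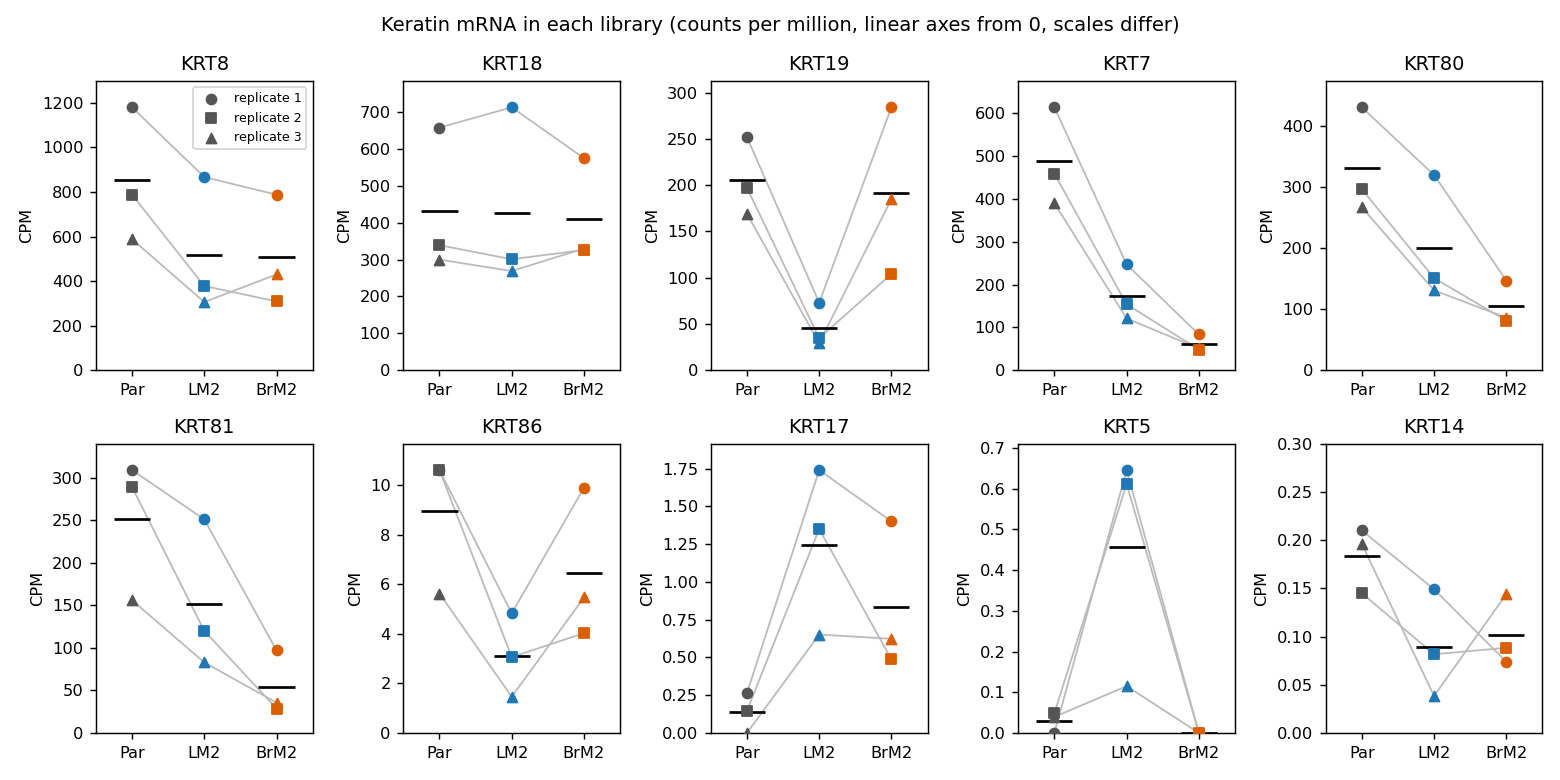
Level of each keratin in the 9 libraries, in CPM on linear axes from 0 with a scale of its own per gene; horizontal bars are the means of 3 libraries, symbols mark the replicate number and grey lines join libraries of the same number. KRT7 descends from Par to LM2 to BrM2 in all 3 replicates, KRT19 dips in LM2 only, and the circles of replicate 1 are mostly the highest.

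KRT8 and KRT18, partners in the luminal filament, correlated at r = 0.81 in log2 CPM over the 9 libraries, which share the 3 lines and the replicate numbers, and at 0.44 with the means of the replicate numbers removed. KRT8 was measured at 1180, 788 and 588 CPM in Par, 867, 378 and 306 in LM2 and 788, 309 and 430 in BrM2. The ranges of the lines overlapped, yet in each same-numbered pair KRT8 was lower in LM2 and in BrM2 than in Par. Its log2 difference from Par was -0.72 in LM2 (SE 0.48, edgeR adjusted p = 0.49) and -0.75 in BrM2 (SE 0.48, edgeR adjusted p = 0.41). With the replicate block both passed the threshold, at -0.82 (SE 0.18, edgeR adjusted p = 0.0049) and -0.79 (SE 0.18, edgeR adjusted p = 0.0046).

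KRT18 was measured at 658, 339 and 300 CPM in Par, 713, 301 and 269 in LM2 and 575, 326 and 330 in BrM2. Its highest library in each line was replicate 1, and the other libraries lay between 269 and 339 CPM whatever the line. No test found a difference in KRT18. The log2 difference from Par was -0.01 in LM2 (SE 0.45, edgeR adjusted p = 0.99) and -0.08 in BrM2 (SE 0.45, edgeR adjusted p = 0.96), and with the block it was -0.06 (SE 0.13, edgeR adjusted p = 0.72) and -0.03 (SE 0.13, edgeR adjusted p = 0.86). The sign of the KRT18 difference turned in LM2 with RLE scaling, another filter, DESeq2 or a library left out, and in BrM2 with a library left out.

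The balance between the partners was taken within each library, which removes what a library adds to both. KRT18 per KRT8, in CPM per kb, was 0.703, 0.543 and 0.644 in Par, 1.04, 1.01 and 1.11 in LM2, and 0.922, 1.33 and 0.969 in BrM2. Every library of the sub-populations was above every Par library, with means of 0.63 ± 0.0809 in Par, 1.05 ± 0.0541 in LM2 and 1.08 ± 0.225 in BrM2 (SD, n = 3 each). The 2-sided exact permutation test gave p = 0.1 for LM2 against Par and for BrM2 against Par, which is the smallest value that 3 libraries against 3 allow. Adding the pseudogene counts to their parent genes left means of 0.611, 1.01 and 1.04. KRT8 and KRT18 held 51.0 to 57.5% of the summed keratin level per kb in Par, 65.5 to 70.2% in LM2 and 69.5 to 73.9% in BrM2.

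KRT80, the other widely expressed type II keratin, followed the same order of lines as KRT7. It was measured at 431, 297 and 267 CPM in Par, 320, 151 and 131 in LM2 and 147, 81.5 and 86.0 in BrM2. BrM2 was below Par in every library, and LM2 overlapped both other lines. In BrM2, KRT80 fell by 1.66 against Par (3.17-fold lower, SE 0.4, edgeR adjusted p = 0.024). LM2 differed from Par by -0.72 (SE 0.39, edgeR adjusted p = 0.36) and BrM2 from LM2 by -0.94 (SE 0.39, edgeR adjusted p = 0.21), and both passed with the replicate block, at edgeR adjusted p-values of 0.0011 and 0.00065.

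KRT81, a hair keratin, overlapped KRT19 in its level per kb in Par. Its level was 309, 289 and 156 CPM in Par, 251, 120 and 82.8 in LM2 and 96.9, 28.6 and 35.6 in BrM2. All BrM2 libraries were below all Par libraries, and LM2 overlapped Par and BrM2. KRT81 fell by 2.23 in BrM2 against Par (4.68-fold lower, SE 0.57, edgeR adjusted p = 0.033). It differed by -0.73 between LM2 and Par (SE 0.55, edgeR adjusted p = 0.56) and by -1.50 between BrM2 and LM2 (SE 0.56, edgeR adjusted p = 0.16), and with the block these passed at 0.018 and 0.00087.

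KRT86, the near copy of KRT81, was far lower per kb and had another order of lines. Its counts were 201, 220 and 143 in Par, 97, 75 and 38 in LM2 and 134, 91 and 114 in BrM2, or 10.6, 10.6 and 5.62 CPM, 4.82, 3.06 and 1.46 CPM, and 9.89, 4.02 and 5.46 CPM. All LM2 libraries were below all Par libraries and BrM2 overlapped both. The log2 difference of LM2 from Par was -1.53 (SE 0.5, edgeR adjusted p = 0.11, and 0.0016 with the block). BrM2 differed from Par by -0.48 (SE 0.49, edgeR adjusted p = 0.64, and 0.17 with the block) and from LM2 by 1.05 (SE 0.5, edgeR adjusted p = 0.27, and 0.013 with the block).

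Within a library, KRT81 per KRT86 in CPM per kb was 34.1, 31.6 and 32.3 in Par, 60.8, 45.8 and 66.2 in LM2 and 11.4, 8.29 and 7.59 in BrM2. The 3 lines did not overlap in this ratio, and the 2-sided exact permutation p was 0.1 for each of the 3 comparisons, the smallest possible. A count assigned to the wrong member of this pair would change the ratio, and since KRT86 had the lower counts it would be affected more. With the counts of both genes added up, the sum passed the threshold in the same comparisons as KRT81 alone, with and without the block. That sum was mostly KRT81, with 28687 counts over all libraries beside 1113 of KRT86. It therefore cannot show how far KRT86 or the ratio was affected.

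**Figure D3:**
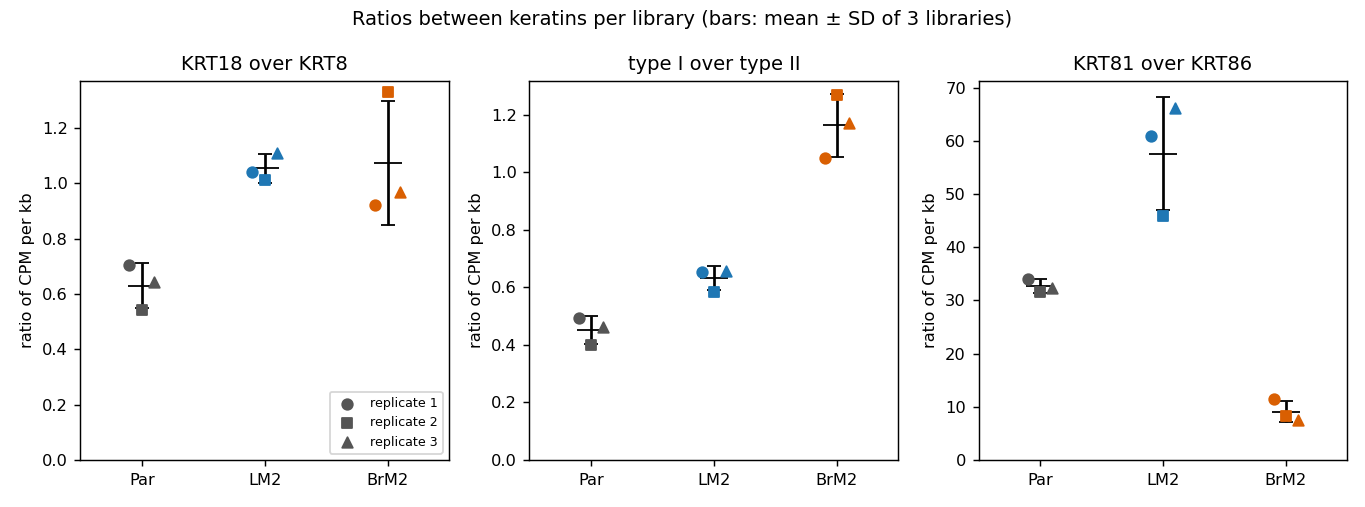
Ratios between keratins within each library, computed from CPM per kb on linear axes from 0, with the mean and SD of 3 libraries per line and symbols for the replicate number. KRT18 over KRT8 is higher in LM2 and BrM2 than in Par, type I over type II rises from Par (0.451) over LM2 (0.631) to BrM2 (1.16), and KRT81 over KRT86 is lowest in BrM2.

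The falls were not even between the 2 types of chain. All type II genes together gave 998 ± 300 CPM per kb in Par, 529 ± 284 in LM2 and 380 ± 181 in BrM2, and the type I genes 454 ± 169, 336 ± 193 and 429 ± 162 (SD, n = 3 each). The ratio of type I to type II was 0.492, 0.399 and 0.463 in the Par libraries, 0.655, 0.584 and 0.656 in LM2 and 1.05, 1.27 and 1.17 in BrM2. The lines did not overlap, and each of the 3 exact permutation tests gave p = 0.1, the smallest that this design allows. Summed over these 10 genes per kb, type II mRNA was thus above type I in every Par and LM2 library, and type I above type II in every BrM2 library. The margin was narrow in BrM2 replicate 1, at 612 against 585 CPM per kb. Other keratins and the pseudogene counts were not included. The levels per kb were also not corrected for stretches found in other genes. Those made up 44.6% for KRT81, 39.2% for KRT8 and 36.7% for KRT18, but 1.08% for KRT7. A correction could change which type is above the other in a library, and it was not made.

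The basal keratins were at the limit of detection and were not tested, because none reached 47.15 normalized counts in any library. KRT5 had 0, 1 and 1 counts in Par, 13, 15 and 3 in LM2 and 0, 0 and 0 in BrM2. KRT5 was detected above a few counts in LM2 only, where its pooled CPM was 14.3 times that of Par (95% exact counting interval 3.63 to 123). A count of 0 over the 3 BrM2 libraries together allows up to 3 counts in their sum. Against that pooled floor the bound for KRT5 was 8.34-fold lower in BrM2 than in LM2, with the 31 LM2 counts taken as exact. Without BrM2 replicate 1, 2 or 3 the bound became 6.36-fold, 5.03-fold or 5.29-fold. Without LM2 replicate 1, 2 or 3 it became 6.76-fold, 6.58-fold or 11.9-fold.

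KRT17, which basal and stressed epithelium makes, had 5, 3 and 0 counts in Par, 35, 33 and 17 in LM2 and 19, 11 and 13 in BrM2. Both sub-populations were above Par in every library. The pooled CPM was 9.78 times that of Par in LM2 (95% counting interval 4.75 to 23.4) and 6.14 times in BrM2 (2.85 to 15.1). Both rested on 8 Par counts, and they became 18.5 and 11.6 times without Par replicate 1 and 5.96 and 3.74 times without Par replicate 3. The 8 KRT17 pseudogenes had 35 counts over all libraries, beside 136 of KRT17. They came to between 0% and 200% of the KRT17 count of a library, a count of 0 being taken as 1. These folds were not computed with the pseudogene counts added. Without the filter, edgeR gave KRT17 a log2 difference from Par of 3.25 in LM2 (SE 0.68, adjusted p = 0.0013) and of 2.61 in BrM2 (SE 0.71, adjusted p = 0.014), over 34056 genes. With filterByExpr, over 15865 genes, KRT17 passed in LM2 (log2 difference 3.25, SE 0.82, edgeR adjusted p = 0.039) and not in BrM2 (2.65, SE 0.86, edgeR adjusted p = 0.074). KRT14, the usual partner of KRT5, had 4, 3 and 5 counts in Par, 3, 2 and 1 in LM2 and 1, 2 and 3 in BrM2, too few for a comparison. These intervals cover counting error only. Even the highest KRT17 level, 1.15 CPM per kb in LM2 replicate 1, stood beside 486 CPM per kb of KRT8 in the same library.

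Counted over the members, LM2 against Par had 2 of the 7 tested keratins lower and 0 higher (KRT7 and KRT19), where 8.69% of all 13053 tested genes passed, 4.52% being lower and 4.17% higher. The members' median log2 difference was -0.73, beside 0.01 for all tested genes. With the replicate block, 6 of 7 were lower, all but KRT18, against 34.5% of all genes past the threshold and 19.1% lower. In 3 of 7 (KRT7, KRT19 and KRT86) the libraries of the 2 lines did not overlap, against 25.2% of all genes. KRT7 and KRT19 lost the call when Par replicate 1, Par replicate 2, LM2 replicate 2 or LM2 replicate 3 was left out (0 members past the threshold in edgeR, 3 at an unadjusted p under 0.05). Without the replicates numbered 1 in all lines, 6 passed, the same 6 as with the block. Without those numbered 2 or those numbered 3, 0 passed in edgeR with no block, with 2 and 3 at an unadjusted p under 0.05.

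BrM2 against Par had 3 of 7 lower and 0 higher (KRT7, KRT80 and KRT81), where 13.3% of all tested genes passed, 7.03% being lower and 6.25% higher. The median of the members was -0.75, beside -0.02 over all tested genes. With the block 4 were lower, KRT8 being added, against 42.7% of all genes past the threshold and 23.2% lower, and in 3 the libraries did not overlap, against 31.3%. Leaving out Par replicate 1, Par replicate 2, BrM2 replicate 2 or BrM2 replicate 3 left KRT7 alone past the threshold, and without LM2 replicate 2 only the call of KRT81 was lost. Without the replicates numbered 1, the same 4 passed as with the block. Without those numbered 2, KRT7 lost its call too and 0 passed in edgeR with no block, with 2 at an unadjusted p under 0.05. Without those numbered 3, KRT7 alone passed. The comparisons of LM2 and of BrM2 with Par share the Par libraries, so their values are not independent of each other.

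BrM2 against LM2 had KRT7 lower and KRT19 higher among the 7, against 8.09% of all tested genes past the threshold, 3.99% lower and 4.1% higher. The members' median was -0.06, beside -0.03 over all tested genes. With the block KRT80 and KRT81 were also lower and KRT86 higher, 5 of 7 in all, where 37.5% of all genes passed (19.7% lower and 17.8% higher), and KRT7 and KRT19 alone did not overlap, where 23.1% of all genes did not. The call of KRT7 was lost without Par replicate 2, LM2 replicate 2, BrM2 replicate 2 or BrM2 replicate 3, and that of KRT19 without LM2 replicate 2, LM2 replicate 3, BrM2 replicate 1 or BrM2 replicate 3. Without LM2 replicate 2 and without BrM2 replicate 3, 0 passed in edgeR, with 4 and 2 at an unadjusted p under 0.05, and without BrM2 replicate 1 KRT81 passed. Without the replicates numbered 1, 4 passed (KRT7, KRT19, KRT80 and KRT81). Without those numbered 2 or those numbered 3, 0 passed in edgeR with no block, with 2 at an unadjusted p under 0.05 each time. In bulk RNA, fewer cells making a keratin and less of it in each cell cannot be told apart.

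**Figure D4:**
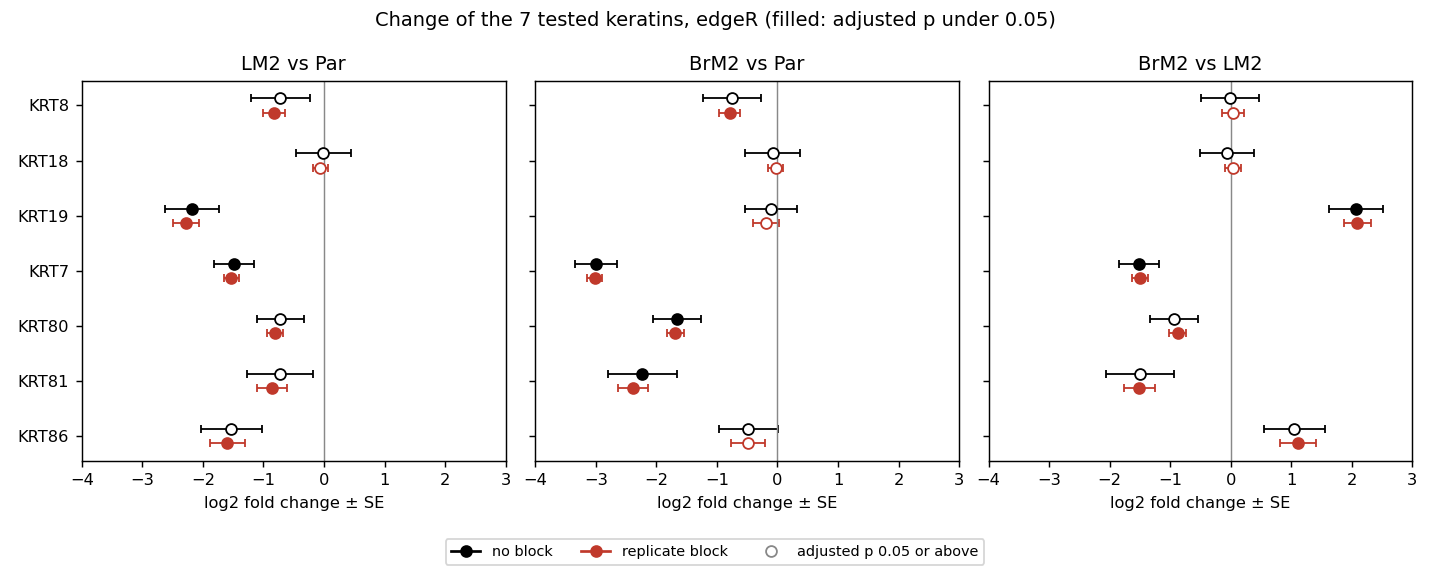
Log2 fold change with its standard error for the 7 tested keratins in the 3 comparisons, from edgeR without (black) and with (red) the replicate number as a block; filled symbols have an adjusted p under 0.05. The estimates of the 2 fits lie close together and the errors of the blocked fit are smaller, so that 6, 4 and 5 keratins pass with the block and 2, 3 and 2 without it.

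Of 45 other keratins, only KRT10, KRT15 and KRT34 passed the filter, with a median log2 difference of 0.11 in LM2 against Par, -0.22 in BrM2 against Par and -0.33 in BrM2 against LM2. KRT10, the type I keratin of suprabasal epidermis, was measured at 17.6 CPM in Par, 19 in LM2 and 15.1 in BrM2. None of the 3 passed the threshold in any comparison, in edgeR or in DESeq2, and 0 had an unadjusted p under 0.05. With the block KRT34 was lower in BrM2 than in LM2 (log2 difference -0.91, SE 0.33, edgeR adjusted p = 0.048). KRT6A, KRT6B and KRT6C, which accompany KRT17 in stressed epidermis, had 0 counts in 8 libraries and 1 count (KRT6B) in LM2 replicate 1, and KRT16 had 0 to 13 counts in a library.

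Among 20 desmosome and plakin genes, whose products anchor keratin filaments at cell junctions, 13 were tested, with a median log2 difference from Par of -0.22 in LM2 and -0.05 in BrM2 (0.01 and -0.02 over all tested genes), and of 0.27 between BrM2 and LM2 (-0.03 over all). Periplakin (PPL), a plakin that binds filaments, was the only one past the threshold in BrM2 against Par without the block, at 56.3, 70.3 and 55.1 CPM in Par, 31.7, 42.4 and 30.9 in LM2 and 9.6, 3.44 and 6.9 in BrM2. The lines did not overlap, and PPL fell by 3.19 in BrM2 against Par (9.15-fold lower, SE 0.37, edgeR adjusted p = 0.00066) and by 2.40 against LM2 (SE 0.36, edgeR adjusted p = 0.0036), in all 9 fits with 1 library left out. Plakophilin 2 (PKP2), an armadillo protein of desmosomes, was 2.27-fold higher in BrM2 than in LM2 (log2 difference 1.18, SE 0.22, edgeR adjusted p = 0.012), and that call held in 7 of the 9 fits. LM2 against Par gave 0 of 13 past the threshold, 5 at an unadjusted p under 0.05, 4 in DESeq2, and with the block 4 lower (EVPL, PKP2, JUP and PPL) and 1 higher (DSC2). Desmoplakin (DSP), the main keratin anchor, was at 111 CPM in Par, 116 in LM2 and 84.1 in BrM2, with no call without the block. The block gave 3 higher and 3 lower (PPL, JUP and DSP) in BrM2 against Par, and 2 higher and 4 lower in BrM2 against LM2. Of all tested genes, 8.69% passed without the block and 34.5% with it in LM2 against Par. The shares were 13.3% and 42.7% in BrM2 against Par, and 8.09% and 37.5% in BrM2 against LM2.

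All 7 genes of hemidesmosomes and the basal lamina were tested, with median log2 differences from Par of -0.03 in LM2 and -0.15 in BrM2, and of -0.12 between BrM2 and LM2. Integrin beta 4 (ITGB4), which ties keratins to the basement membrane, was at 231, 282 and 178 CPM in Par, 358, 265 and 225 in LM2 and 92.1, 29.7 and 47.9 in BrM2. BrM2 stood below the other lines in every library, and ITGB4 fell there by 2.03 against Par (SE 0.41, edgeR adjusted p = 0.011) and by 2.32 against LM2 (SE 0.41, edgeR adjusted p = 0.0088). The laminin chain LAMB3 was higher in BrM2 than in LM2 by 1.19 (SE 0.3, edgeR adjusted p = 0.045). With 1 library left out, the calls of ITGB4 held in 8 of 9 fits and that of LAMB3 in 2, and the block gave 3 higher and 3 lower in BrM2 against Par and 2 higher and 2 lower in BrM2 against LM2. In LM2 against Par 0 of 7 passed in edgeR or DESeq2, with 1 (ITGA6) at an unadjusted p under 0.05 in edgeR and 2 in DESeq2, while with the block 1 was higher and 2 were lower. Among all tested genes, the block passed 34.5% in LM2 against Par, 42.7% in BrM2 against Par and 37.5% in BrM2 against LM2. Without it 8.69%, 13.3% and 8.09% passed.

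Of 13 other intermediate filament genes 7 were tested, with median log2 differences from Par of -0.06 in LM2 and -0.23 in BrM2. Vimentin (VIM), the filament protein of mesenchymal cells, rose in both sub-populations. It was at 883, 636 and 655 CPM in Par, 1880, 1360 and 1380 in LM2 and 1820, 1430 and 1250 in BrM2, and all libraries of the sub-populations were above those of Par. The log2 rise was 1.08 in LM2 (2.12-fold, SE 0.23, edgeR adjusted p = 0.02) and 1.05 in BrM2 (2.07-fold, SE 0.23, edgeR adjusted p = 0.016). The call of VIM held in 7 of 9 fits with 1 library left out in LM2 and in 6 of 9 in BrM2. Nestin (NES), a filament protein of progenitor cells, fell by 0.79 in LM2 (SE 0.18, edgeR adjusted p = 0.027), a call that held in 3 of those 9 fits. BrM2 against LM2 gave 0 of 7 past the threshold in edgeR, 2 at an unadjusted p under 0.05, 1 in DESeq2, and 1 higher and 2 lower with the block. In that comparison 8.09% of all tested genes passed in edgeR without the block and 37.5% with it.

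Of 11 genes for keratin modifiers and chaperones, all tested, 2 passed in at least 1 comparison, and the median log2 difference from Par was 0.03 in LM2 and 0.31 in BrM2, and that of BrM2 from LM2 was 0.58. PRKCE, a kinase that phosphorylates KRT18, rose by 0.80 in LM2 (SE 0.16, edgeR adjusted p = 0.013) and by 1.67 in BrM2 (SE 0.16, edgeR adjusted p = 0.00027) against Par. TGM2, a transglutaminase that can cross-link keratins, differed in BrM2 by -1.61 from Par (SE 0.41, edgeR adjusted p = 0.033) and by -1.85 from LM2 (SE 0.42, edgeR adjusted p = 0.027), and was lower in both. With 1 library left out, the calls of PRKCE held in 6 and 9 of 9 fits and those of TGM2 in 4 and 6. The block gave 1 higher and 2 lower in LM2 against Par, 4 higher and 1 lower in BrM2 against Par, and 5 higher and 1 lower in BrM2 against LM2. Beside these, 34.5%, 42.7% and 37.5% of all tested genes passed with the block in the 3 comparisons. Without it the shares of all tested genes were 8.69%, 13.3% and 8.09%.

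The epithelial identity genes did not share 1 direction. Their median log2 difference from Par was -1.02 in LM2 and 0.00 in BrM2, with 0.56 between BrM2 and LM2. The medians over all tested genes were 0.01, -0.02 and -0.03. In LM2 against Par 4 of 10 fell (CLDN4, MUC1 and ESRP2 among them) and 1 rose (CD24), and in BrM2 against Par 4 fell (MUC1, CLDN4 and ELF3 among them) and 3 rose (CD24, OCLN and ESRP2). Claudin 4 (CLDN4), a tight junction protein, was at 107, 106 and 72.7 CPM in Par, 7.75, 4.53 and 5.25 in LM2 and 32.7, 9.54 and 17.8 in BrM2. LM2 had the lowest CLDN4 level in every library, as it had for KRT19, with a log2 difference from Par of -4.03 (SE 0.47, edgeR adjusted p = 0.001) and a log2 difference of 1.77 between BrM2 and LM2 (SE 0.43, edgeR adjusted p = 0.039). The splicing regulator ESRP2 fell by 1.63 in LM2 (SE 0.22, edgeR adjusted p = 0.0024) and rose by 0.83 in BrM2 (SE 0.22, edgeR adjusted p = 0.033). The mucin MUC1 was lowest in BrM2, as KRT7 was, at 0.664, 0.397 and 0.192 CPM beside 23.7, 16.9 and 18.4 in Par. MUC1 differed from Par by -3.01 in LM2 (SE 0.41, edgeR adjusted p = 0.0021) and by -5.60 in BrM2 (SE 0.49, edgeR adjusted p = 0.0002). CLDN7, EPCAM and MARVELD2 passed in no comparison without the block. With 1 library left out, the calls against Par held in all 9 fits for MUC1 and CD24, in 9 (LM2) and 8 (BrM2) for CLDN4, in 9 and 2 for ESRP2, and in BrM2 in 8 for ELF3 and 4 for OCLN. That of CLDN4 between BrM2 and LM2 held in 2. With the block, 7 of 10 were lower and 1 higher in LM2 against Par, and 5 were higher and 2 lower in BrM2 against LM2, where without it 2 were higher and 1 lower. Over all tested genes, 34.5% passed with the block in LM2 against Par (19.1% lower) and 37.5% in BrM2 against LM2 (17.8% higher). Without the block 8.69% passed in LM2 against Par, 13.3% in BrM2 against Par and 8.09% in BrM2 against LM2.

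Most markers of other cell types were low, and COL1A1 and GFAP were the highest of them. Of the 16 marker genes 5 were tested, and the summed level of the list was 25.8 to 32.4 CPM in Par, 56.6 to 85.9 in LM2 and 15.8 to 25.1 in BrM2. The range in LM2 overlapped the 74.4 to 93.1 CPM summed there for the epithelial identity genes. The LM2 sum included the collagen gene COL1A1, at 54.4, 41 and 35.1 CPM beside 7.93, 7.74 and 4.83 in Par (log2 difference 2.67, SE 0.37, edgeR adjusted p = 0.0026, held in all 9 fits with 1 library left out). GFAP was at 13.5 ± 3.77 CPM in Par, 13 ± 7.14 in LM2 and 7.08 ± 1.98 in BrM2 (SD, n = 3 each), with means above those of EPCAM. SNAP25 was the other gene past the threshold in LM2, and BrM2 against Par gave 0 in edgeR, 2 at an unadjusted p under 0.05, and 0 in DESeq2. The median log2 difference of the 5 was 0.97 in LM2 against Par, -0.68 in BrM2 against Par and -1.27 in BrM2 against LM2. With the block 2 were higher and 1 lower in LM2 against Par, 3 lower in BrM2 against Par, and 4 lower in BrM2 against LM2, where 2 were lower without it. The block passed 34.5%, 42.7% and 37.5% of all tested genes in these comparisons, and the fit without it 8.69%, 13.3% and 8.09%. The part of these genes in the keratin differences was not tested.

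**Figure D5:**
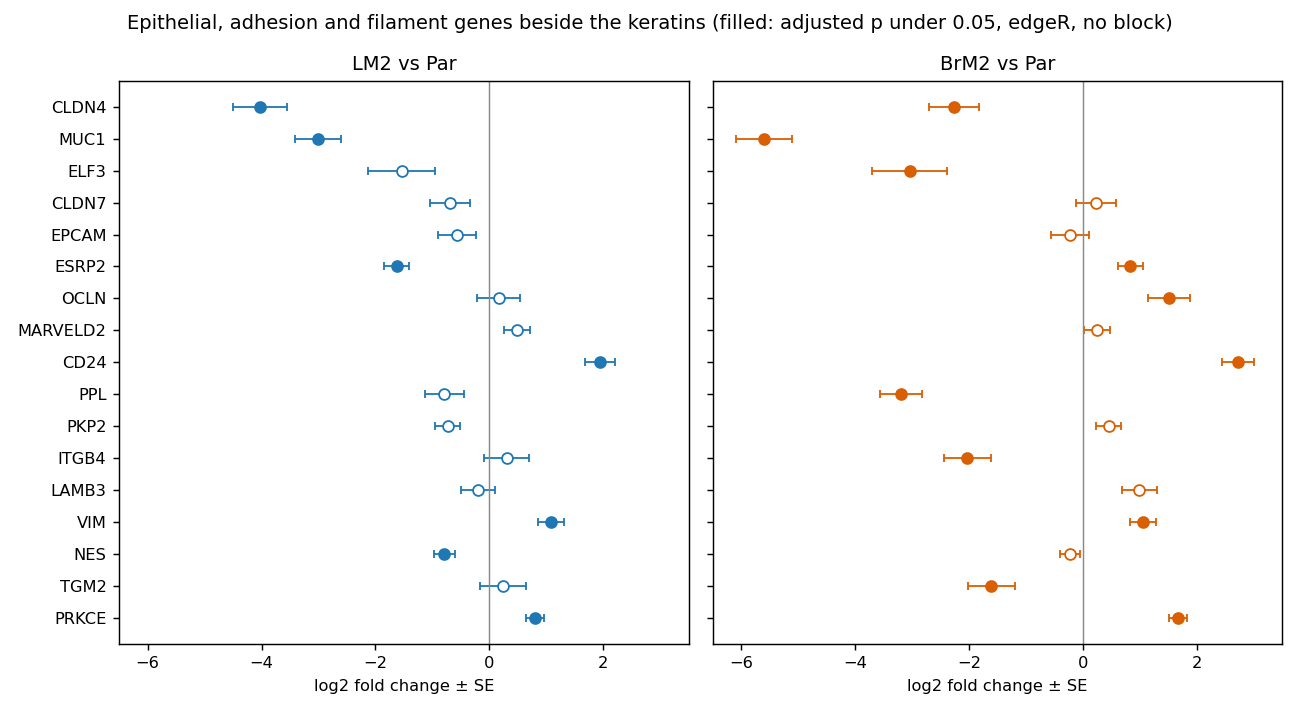
Log2 fold change with its standard error of 17 epithelial, junction and filament genes in LM2 against Par (left) and BrM2 against Par (right), edgeR without the block; filled symbols have an adjusted p under 0.05. CLDN4 and MUC1 are lower and CD24 and VIM higher in both panels, ESRP2 is on opposite sides, and PPL and ITGB4 are filled in BrM2 only, a difference that the direct comparison of BrM2 with LM2 also passed.

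For each tested keratin, the 2 genes with the highest Pearson correlation of log2 CPM over the 9 libraries were taken from all 13053 tested genes, and such a maximum is high by selection. KRT7 was matched by CLU, a secreted chaperone (r = 0.994), and ZP3 (r = 0.994). KRT19 was matched by SPDEF, an Ets factor of luminal epithelium (r = 0.992), and SLC26A11, an anion transporter (r = 0.987). KRT80 was matched by the collagen chaperone SERPINH1 (r = 0.997) and the metalloproteinase inhibitor TIMP1 (r = 0.996), and KRT81 by RAPGEF1 (r = 0.991) and the calcium-binding protein S100A6 (r = 0.988). The matches of KRT8 were ADCK2 (r = 0.994) and the collagen-modifying enzyme PLOD3 (r = 0.993), 1 of those of KRT18 was NRM (r = 0.994), and those of KRT86 PLEKHN1 (r = 0.983) and the lysosomal enzyme SGSH (r = 0.977). The points of these correlations share the 3 lines and the replicate numbers. With the means of the replicate numbers removed, the first match stayed first for KRT19 and KRT81 and changed for KRT7, KRT8, KRT80 and KRT86, and the correlation of KRT18 with NRM became 0.916.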

How the data were processed

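RNA-seq was measured in 9 libraries of 3 lines (Par, LM2, BrM2), grouped by GEO's labels. Per the methods, libraries were stranded and made from mRNA, and paired-end reads were mapped to hg38 and counted per gene with STAR, and the authors deposited these counts without normalization. The submitters' processing notes name CASAVA 1.8.2, STAR 2.7.0 and DESeq2. A second deposited table, of the authors' DESeq2 log2 fold changes and adjusted p-values against Par, was not used.

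Counts of 3 repeated identifiers were added up, giving 58884 genes. A filter written after HTSFilter (100 thresholds from 1 to 200, loess span 0.3) kept 13053 genes above 47.15 normalized counts in at least 1 library, holding 99.64% to 99.78% of the counts of a library. It kept 7 of the 10 keratins. Lines were compared in edgeR 4.0.16 (TMM, quasi-likelihood test, all 9 libraries, 2-sided), with Benjamini-Hochberg adjustment over all genes tested and a threshold of 0.05. A fold against 0 counts used a floor of 3 counts over the 3 libraries of a line. Log2 CPM used a prior count of 2. The scripts were tested on simulated counts.

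Replicate numbers were taken as pairing the libraries. Deviations of log2 CPM from the line mean correlated at 0.23 to 0.90 across genes in all 9 pairs of libraries with the same number, and the common dispersion was 0.11 without and 0.021 with the number as a block. Pairs with different numbers ranged from -0.88 to 0.80, and those of numbers 2 and 3 from 0.39 to 0.80. LM2 replicate 3 correlated at 0.80 with BrM2 replicate 2 and at 0.75 with BrM2 replicate 3. The pairing of numbers 2 and 3 is thus less certain than that of number 1. The labels do not say what the numbers stand for.

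Alternatives were RLE scaling, no filter, filterByExpr, DESeq2 1.42.0, the block, each library or replicate number left out, 2 lines at a time, KRT81 and KRT86 counts added up, and pseudogene counts added. The keratins and all gene lists were chosen with earlier results of these data known. Genes named from a list had a mean of at least 10 CPM and an adjusted p under 0.05 in a comparison, at most 5 per list, besides all tested epithelial identity genes and VIM. A few genes that these rules name are counted but not reported by name here. SNAP25, the basal keratins' relatives and the genes listed with a block result were named after their values were seen. Coordinates came from RefSeq GRCh38.p14 by symbol, and transcript lengths, shared 50-base stretches and exon overlaps from GENCODE transcripts in GRCh37, 1 canonical transcript per gene for lengths. Other software was R 4.3.3, limma 3.58.1 and Python 3.11.15 with matplotlib 3.10.9, pandas 2.3.3 and numpy 2.4.6.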

Additional observations from a re-analysis of the deposited data

Results flagged for a closer look

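KRT7 and KRT19 differed between the sub-populations by the direct test of BrM2 against LM2. KRT7 was lower in BrM2, with a log2 fold change of -1.52 (SE 0.33, edgeR adjusted p = 0.025, lower in 3 of 3 same-numbered pairs), although both sub-populations were below Par. KRT19 was higher in BrM2, with a log2 fold change of 2.07 (SE 0.45, edgeR adjusted p = 0.023, higher in 3 of 3 pairs), and LM2 had its lowest levels of the 3 lines.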

How the results depend on the processing

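The number of keratins past the threshold was 2 (LM2 against Par), 3 (BrM2 against Par) and 2 (BrM2 against LM2). With the replicate block it was 6, 4 and 5, and it was the same in DESeq2 with the block and with the block and RLE factors. Without a filter it was 5 (KRT5, KRT17 and KRT86 added), 4 and 4 (KRT5 and KRT81 added), and with 2 lines alone BrM2 against LM2 gave 0 (3 at an unadjusted p under 0.05). Adding KRT81 and KRT86 counts together with the block, chosen after seeing the data, gave 5, 4 and 4. RLE factors, filterByExpr, DESeq2 without the block, and the added KRT81 and KRT86 or pseudogene counts stayed within 1.5 times. With 1 library or 1 replicate number left out, the counts ranged from 0 to 6, 0 to 4 and 0 to 5, the highest with replicate 1 left out or with the block. Where it was 0 in edgeR, 2 to 4 keratins had an unadjusted p under 0.05, and DESeq2 was not run there. Over all genes, 1134, 1733 and 1056 passed, against 4508, 5573 and 4894 with the block, and 1892 and 1823 in DESeq2 for LM2 against Par and BrM2 against LM2. With 1 library left out, a line was left with 2.

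KRT7, KRT80, KRT81 and KRT86 kept their direction in every comparison, as did KRT8 and KRT19 in those not named next. Over the log2 fold changes of single genes, 182 lost and 62 gained the call in the same direction and 41, of KRT8, KRT18 or KRT19, turned sign. KRT18 in LM2 against Par became 0.02 (RLE, DESeq2), 0.00 (no filter, and the block without replicate 2), 0.01 (filterByExpr) and 0.02 (the block without replicate 3), and -0.60 to 0.42 with libraries left out. In BrM2 against Par, KRT18 ranged from -0.40 to 0.36 and KRT19 from -0.51 to 0.19 with libraries left out, and with the block they became 0.06 without replicate 1 (KRT18) and 0.16 without replicate 2 (KRT19). In BrM2 against LM2, KRT8 became 0.03 with the block, 0.14 or 0.16 with the block without replicate 1 or 2, and 0.02 in DESeq2 or RLE with the block, KRT18 became 0.03 and 0.02, and 0.22 with the block without replicate 1, and with libraries left out they ranged from -0.49 to 0.57 and from -0.38 to 0.52. With 1 library left out, which can move a mean of 3 little by construction, KRT18 over KRT8 ranged from 0.593 to 0.673 in Par, 1.02 to 1.08 in LM2 and 0.946 to 1.15 in BrM2, and KRT81 over KRT86 from 32 to 33.2, 53.3 to 63.5 and 7.94 to 9.85. Type I over type II, left out in the same way after seeing the data, ranged from 0.431 to 0.477, 0.619 to 0.655 and 1.11 to 1.22, and the pooled folds of KRT5 and KRT17 without a library were also added then. The cause of these changes was not tested.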
